A study of Mus musculus with 8 samples.

Results

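Gangliosides are sphingolipids that carry sialic acid, and the transcripts of 8 genes that build or degrade them were measured in mouse striatum. The 8 genes were taken by their symbols from 55032 genes in the deposited table. They are Ugcg, B4galt6, St3gal5, B4galnt1, St8sia1, St3gal2 and B3galt4, which add the successive sugars, and Hexa, which takes part in lysosomal breakdown. The study compared the striatum of 4 female WT mice with that of 4 female 16p11.2+/- mice at postnatal day 60, and each mouse gave 1 RNA sequencing library. All 8 mice were of the C57BL/6 strain, and the labels name no treatment and no allele other than the deletion. The 16p11.2+/- mice carry a heterozygous deletion of the segment corresponding to human 16p11.2, from a line obtained from the Jackson Laboratory, and the WT mice carry none. Mice are named as in the labels, where DF stands before the number of each 16p11.2+/- mouse. The labels give no litter or batch, so p-values measure the spread between these 8 mice only.

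Ganglioside synthesis starts in the Golgi from ceramide. Ugcg adds glucose, B4galt6 adds galactose to give lactosylceramide, and St3gal5 adds the first sialic acid to give GM3, from which the a-series descends. St8sia1 adds a further sialic acid to GM3 to give GD3, the entry to the b-series. B4galnt1 adds N-acetylgalactosamine to products of both series, B3galt4 adds the next galactose to give GM1 and its relatives, and St3gal2 caps that galactose with sialic acid. Hexa encodes the alpha subunit of beta-hexosaminidase A, which with the activator Gm2a removes N-acetylgalactosamine from GM2 in lysosomes, and its loss causes Tay-Sachs disease. Gangliosides are abundant on neurons, and those of the axon bind the myelin protein Mag.

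The total count over genes was 15125051 to 16387993 in WT libraries and 15240680 to 16523429 in 16p11.2+/- libraries. The genotype labels were examined on 3 genes of the deleted segment. FPKM (the read count scaled to gene length and to the size of the library) of Taok2 was 17.8 ± 0.902 (SD, n = 4) in WT and 9.19 ± 0.424 (n = 4) in 16p11.2+/- mice, and that of Mapk3 and Aldoa also did not overlap between genotypes. Markers of medium spiny neurons, the principal cells of striatum, were present in every mouse, and none of the 8 was at 0. Their summed FPKM was between 842 and 1424 in WT and between 264 and 1330 in 16p11.2+/- mice. The summed FPKM of 7 thalamus markers ranged from 22.4 to 219 in WT and from 35.5 to 218 in 16p11.2+/- mice, and that of 8 oligodendrocyte markers was between 1829 and 2140 in WT and between 1151 and 1607 in 16p11.2+/- mice. None of these 8 passed the adjusted threshold between genotypes (edgeR), 6 had an unadjusted p under 0.05, and all 8 log2 fold changes were negative. The summed FPKM of 6 choroid plexus markers was 7.58 to 4411 in WT, with the highest value in WT-1063, and 12.1 to 127 in 16p11.2+/- mice, and the marker Kcnj13 was at 0 in 1 or more mice. In such bulk tissue, fewer cells of a type and less RNA per cell cannot be told apart.

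None of the 8 genes passed an adjusted p of 0.05 between genotypes with edgeR's quasi-likelihood test and Benjamini-Hochberg adjustment over 18294 genes. All 8 had enough counts to be tested, and 20 of all genes tested passed, which is 0.109%. St8sia1 was the single member with an unadjusted p under 0.05, while 4.32% of all genes tested had one. DESeq2 also called 0 members at the adjusted threshold and 1, St8sia1, at the unadjusted one. FPKM overlapped between genotypes for all 8 members, against 2.83% of all genes tested that did not overlap. Of the 8 log2 fold changes, expressed as 16p11.2+/- over WT, 6 were positive and 2 negative, with a median of 0.04, beside -0.01 for all genes tested.

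**Figure D1:**
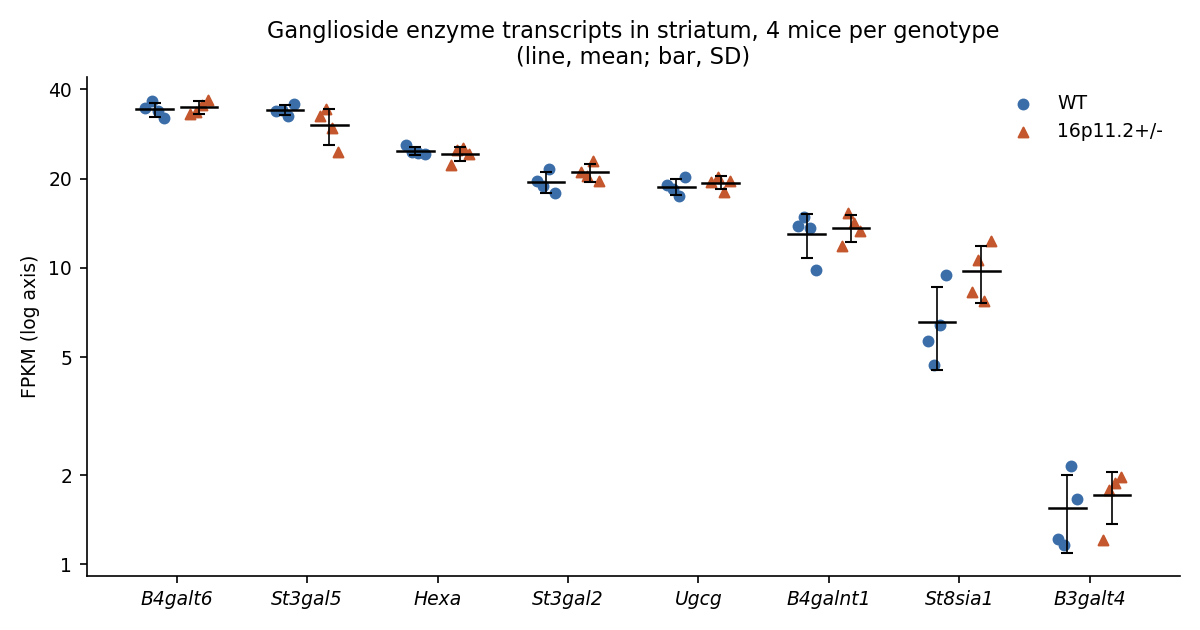
FPKM of the 8 members on a log axis, ordered by mean level, in 4 WT mice (circles) and 4 16p11.2+/- mice (triangles), with a line at the mean and a bar for the SD. The genotypes overlap for every member, St8sia1 varies most between mice, and B3galt4 lies lowest, between 1.16 and 2.14.

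Ugcg (ENSMUSG00000028381) encodes glucosylceramide synthase, which opens the pathway, and lies on chromosome 4 from 59189257 to 59222833 on the forward strand (GRCm38, GENCODE M21) with 9 exon blocks. Its FPKM was 19.1, 18.4, 17.4 and 20.3 in mice WT-1015, WT-1041, WT-1061 and WT-1063. In mice DF-1018, DF-1037, DF-1059 and DF-1062 it was 19.5, 20.3, 18.04 and 19.7. The highest WT mouse and the highest 16p11.2+/- mouse reached almost the same value, and the genotypes overlapped throughout. The log2 fold change was 0.02 (SE 0.07, edgeR adjusted p = 0.947), with a 95% interval from -0.14 to 0.19.

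B4galt6 (ENSMUSG00000056124) encodes a lactosylceramide synthase and lies on chromosome 18 from 20684599 to 20746404 on the reverse strand. WT mice had 34.4, 36.5, 33.8 and 32.0 FPKM, in the same order of mice as above, and 16p11.2+/- mice had 33.1, 33.5, 35.5 and 36.9. Both genotypes held mice at the top and at the bottom of this narrow range. Its log2 fold change was 0.00 with a 95% interval from -0.16 to 0.16 (edgeR adjusted p = 0.9998). B4galt5, which encodes the other lactosylceramide synthase, had 10.8 ± 2.04 FPKM (SD, n = 4) in WT and 12.3 ± 2.78 (n = 4) in 16p11.2+/- mice, and a log2 fold change of 0.16 (SE 0.17).

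St3gal5 (ENSMUSG00000056091) encodes GM3 synthase, the first sialyltransferase of the pathway, on chromosome 6 from 72097592 to 72154571 on the forward strand. FPKM was 33.9, 34.03, 32.4 and 35.7 in WT and 32.4, 34.2, 29.6 and 24.5 in 16p11.2+/- mice. Mice DF-1059 and DF-1062 lay below every WT mouse, and DF-1018 and DF-1037 lay within the WT range. The mean was 33.99 ± 1.34 in WT and 30.2 ± 4.24 in 16p11.2+/- mice (SD, n = 4 each). A log2 fold change of -0.19 (SE 0.12) was estimated, with a 95% interval from -0.46 to 0.08 and an edgeR adjusted p of 0.859. An exact two-sided permutation test of FPKM over the 70 assignments of the 8 mice gave p = 0.2, where the smallest p that the design allows is 0.0286. The log2 fold change was -0.07 without mouse DF-1062 and 0.06 (SE 0.14) with the oligodendrocyte marker score as a covariate. That score averages the log2 CPM (library-scaled counts) of the 8 markers and was lowest in mouse DF-1062 at 7.97. It was between 8.60 and 8.96 in WT and between 7.97 and 8.57 in 16p11.2+/- mice. The genotypes did not overlap in this score, so score and genotype could not be well separated in that fit.

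St8sia1 (ENSMUSG00000030283) encodes GD3 synthase, which commits GM3 to the b-series, and lies on chromosome 6 from 142821545 to 142964452 on the reverse strand. It had the largest log2 fold change in size of the 8 members, and its counts ranged from 675 to 1903. FPKM was 5.65, 4.72, 6.43 and 9.42 in mice WT-1015, WT-1041, WT-1061 and WT-1063. It was 8.29, 10.7, 7.72 and 12.3 in mice DF-1018, DF-1037, DF-1059 and DF-1062. Mice DF-1037 and DF-1062 were above every WT mouse, 3 of 4 WT mice were below every 16p11.2+/- mouse, and WT-1063 lay between the 16p11.2+/- values, so the genotypes overlapped. The mean was 6.55 ± 2.04 in WT and 9.75 ± 2.14 in 16p11.2+/- mice (SD, n = 4 each), a ratio of 1.49. On the log2 scale the fold change was 0.55 (SE 0.22, 95% interval 0.05 to 1.04) with an edgeR adjusted p of 0.859 and an unadjusted edgeR p of 0.0333. The exact two-sided permutation test of FPKM gave p = 0.0857. The difference therefore did not pass the adjusted threshold.

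The St8sia1 level is given beside the scores of 2 marker lists, that of thalamus, a neighbouring region, and that of medium spiny neurons. The thalamus score was 4.21, 4.26, 3.92 and 7.03 in the 4 WT mice and 6.14, 7.01, 4.23 and 6.46 in the 4 16p11.2+/- mice. The medium spiny neuron score was 8.44, 7.99, 8.60 and 7.84 in WT and 8.53, 6.498, 8.38 and 6.08 in 16p11.2+/- mice. The 4 mice with thalamus scores above 6 (WT-1063 and DF-1018, DF-1037 and DF-1062) were also the 4 with the highest St8sia1. The cut at 6 was not planned, and the share of all genes highest in these 4 mice was not counted. All of these mice but WT-1063 are 16p11.2+/-, and DF-1059 is the only 16p11.2+/- mouse with a score below 6. Score and genotype are therefore only partly separated here. The 2 mice with medium spiny neuron scores below 7, DF-1037 and DF-1062, had the highest St8sia1 of all. No marker of either list passed the adjusted threshold between genotypes (edgeR), nor an unadjusted p of 0.05, and all 7 thalamus markers had positive and all 8 medium spiny neuron markers negative log2 fold changes. With the thalamus score as a covariate in edgeR the log2 fold change of St8sia1 was 0.33 (SE 0.15), with the medium spiny neuron score it was 0.34 (SE 0.20), and without mice DF-1037 and DF-1062 it was 0.30 (SE 0.25). It was 0.75 (SE 0.17) with the choroid plexus score as a covariate and 0.77 (SE 0.17) without WT-1063, the WT mouse with the highest thalamus and choroid plexus scores. The edgeR unadjusted p was 0.0542, 0.133 and 0.27 in the first 3 of these fits and 0.00253 and 0.00217 in the last 2, and the adjusted p was at least 0.511 in all 5. With the oligodendrocyte score, which did not overlap between genotypes, the log2 fold change was 0.43 (SE 0.34, edgeR unadjusted p = 0.239). Without WT-1015, WT-1041, WT-1061, DF-1037 or DF-1062 in turn, the edgeR unadjusted p was between 0.0647 and 0.0816. It was 0.0361 without DF-1018 and 0.0232 without DF-1059. Whether tissue makeup had a part in the St8sia1 difference was not tested further.

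**Figure D2:**
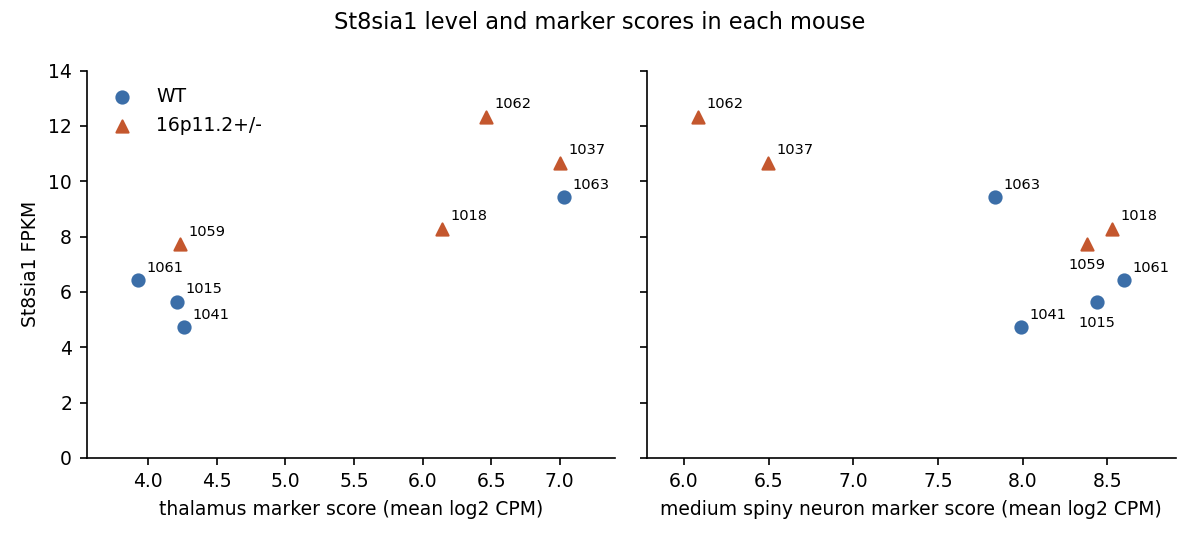
St8sia1 FPKM of each mouse against its thalamus marker score (left) and its medium spiny neuron marker score (right), both as mean log2 CPM, with WT mice as circles and 16p11.2+/- mice as triangles. The 4 mice with thalamus scores above 6 have 8.29 to 12.3 FPKM and the other 4 have 4.72 to 7.72, and the 2 mice with the lowest medium spiny neuron scores have the 2 highest St8sia1 levels.

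St3gal5 and St8sia1 act in sequence and had the largest negative and the largest positive log2 fold change of the 8 members, so their promoter sequences are given here. Each runs from 250 bases before to 50 bases after the gene's start in RefSeq (GRCm38.p6), and both are on chromosome 6: St3gal5 at chr6:72097358-72097657 on the forward strand and St8sia1 at chr6:142964403-142964702 on the reverse strand. Both are printed 5′ to 3′, with the GC box GGGCGG, on either strand, in capitals.
St3gal5: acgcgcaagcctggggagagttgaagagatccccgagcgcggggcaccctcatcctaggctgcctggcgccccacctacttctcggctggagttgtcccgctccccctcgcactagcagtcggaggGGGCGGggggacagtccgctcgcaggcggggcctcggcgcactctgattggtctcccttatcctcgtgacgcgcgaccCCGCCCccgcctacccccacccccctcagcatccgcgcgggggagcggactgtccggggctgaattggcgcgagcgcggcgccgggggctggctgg
St8sia1: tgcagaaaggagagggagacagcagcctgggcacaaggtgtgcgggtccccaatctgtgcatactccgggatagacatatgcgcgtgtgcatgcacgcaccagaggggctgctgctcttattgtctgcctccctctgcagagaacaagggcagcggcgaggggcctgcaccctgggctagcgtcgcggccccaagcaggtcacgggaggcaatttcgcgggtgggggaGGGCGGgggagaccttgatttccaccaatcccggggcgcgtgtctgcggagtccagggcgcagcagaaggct
The St3gal5 promoter held 2 GC boxes and that of St8sia1 held 1, and each held 2 copies of CCAAT on either strand, none sharing a base with a GC box. Neither held TATAAA. Among 32851 RefSeq promoters of the same length, 35.7% held the GC box, 37.4% CCAAT and 13.6% TATAAA. The GC content was 72.7% for St3gal5 and 64.7% for St8sia1, beside a median of 52.7% over all promoters. RefSeq entries were matched by symbol for 5 of the 8 members (Ugcg, St3gal5, St8sia1, B3galt4 and Hexa). The GC box was in each of these 5 promoters, with 2 in Ugcg, 1 in B3galt4 and 3 in Hexa. These matches describe the letters alone.

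B4galnt1 (ENSMUSG00000006731) encodes the GM2 and GD2 synthase, shared by the a-series and the b-series, on chromosome 10 from 127165225 to 127172330 on the forward strand. FPKM was 13.9, 14.8, 13.6 and 9.81 in WT and 11.9, 15.3, 14.2 and 13.3 in 16p11.2+/- mice. WT-1063 was the lowest of the 8 mice and the other 7 lay between 11.9 and 15.3. The log2 fold change was 0.05 (SE 0.14, 95% interval -0.27 to 0.36, edgeR adjusted p = 0.945), and it was -0.07 without WT-1063. Of its exon bases, 20.7% overlap Slc26a10 on the opposite strand, and whether the counting used strand is not given in the sources used here, so reads from this stretch cannot be assigned with certainty.

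B3galt4 (ENSMUSG00000067370) encodes GM1 synthase and consists of a single exon on chromosome 17 from 33949909 to 33951488 on the reverse strand. It was the lowest of the 8, with 28 to 55 counts per mouse. WT mice had 1.22, 1.16, 2.14 and 1.66 FPKM and 16p11.2+/- mice had 1.21, 1.79, 1.88 and 1.97. The lowest and the highest value were both in WT mice. Its log2 fold change was 0.12 (SE 0.25), and its 95% interval from -0.45 to 0.69 was the widest of the 8 (edgeR adjusted p = 0.928).

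St3gal2 (ENSMUSG00000031749) encodes the sialyltransferase that makes terminal sialylated gangliosides from GM1 and its relatives, on chromosome 8 from 110919922 to 110972480 on the forward strand. FPKM was 19.6, 18.8, 21.6 and 17.9 in WT and 21.0, 20.4, 22.9 and 19.5 in 16p11.2+/- mice. The 16p11.2+/- values sat slightly higher, yet only mouse DF-1059 exceeded every WT mouse. Between genotypes the log2 fold change was 0.09 (SE 0.09, 95% interval -0.13 to 0.30, edgeR adjusted p = 0.874). It was 0.28 with the oligodendrocyte score and 0.18 with the medium spiny neuron score as a covariate, with an edgeR unadjusted p of 0.0463 and 0.0461 and an adjusted p of 0.9998 and 0.9999. In these 2 fits St3gal2 was the single member with an unadjusted p under 0.05. Of all 18294 genes tested, 432 and 571 had one in these fits. They were the only 2 of 21 alternatives in which St3gal2 had one, and the medium spiny neuron fit was chosen after seeing the data. The oligodendrocyte score did not overlap between genotypes, so the fit with it could not well separate score from genotype.

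Hexa (ENSMUSG00000025232), on chromosome 9 from 59539540 to 59565109 on the forward strand, stands at the lysosomal end of the pathway. FPKM was 25.9, 24.6, 24.3 and 24.2 in WT and 22.3, 25.0, 25.3 and 24.3 in 16p11.2+/- mice. Only mouse DF-1018 fell below the WT range. Hexa had a log2 fold change of -0.05 (SE 0.07, 95% interval -0.21 to 0.11, edgeR adjusted p = 0.888). Exon bases shared with Tmem202 on the opposite strand make up 12.8% of the gene. Gm2a, the activator protein, had 15.2 ± 4.09 in WT and 14.8 ± 1.63 in 16p11.2+/- mice, and its highest value, 21.3, was in WT-1063.

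Levels are compared between genes in FPKM, which is per length. Over the 8 mice the order was B4galt6 (mean 34.5), St3gal5 (32.1), Hexa (24.5), St3gal2 (20.2), Ugcg (19.1), B4galnt1 (13.3), St8sia1 (8.15) and B3galt4 (1.63). The highest mean was 21.2 times the lowest. B4galt6 exceeded St3gal5 in 6 of 8 mice and St3gal2 exceeded Ugcg in 6 of 8, and each other neighbouring pair kept its order in 8 of 8 mice. The ranges over mice overlapped for all neighbours except Ugcg and B4galnt1, and St8sia1 and B3galt4. The same order held for the means of the 4 WT mice and of the 4 16p11.2+/- mice. Among all genes tested, mean FPKM stood at the percentile 93.6 for B4galt6 and 29.8 for B3galt4. St8sia1 varied most between mice, with a coefficient of variation of 31.7% over the 8 mice, and Hexa least, with 4.35%.

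**Figure D3:**
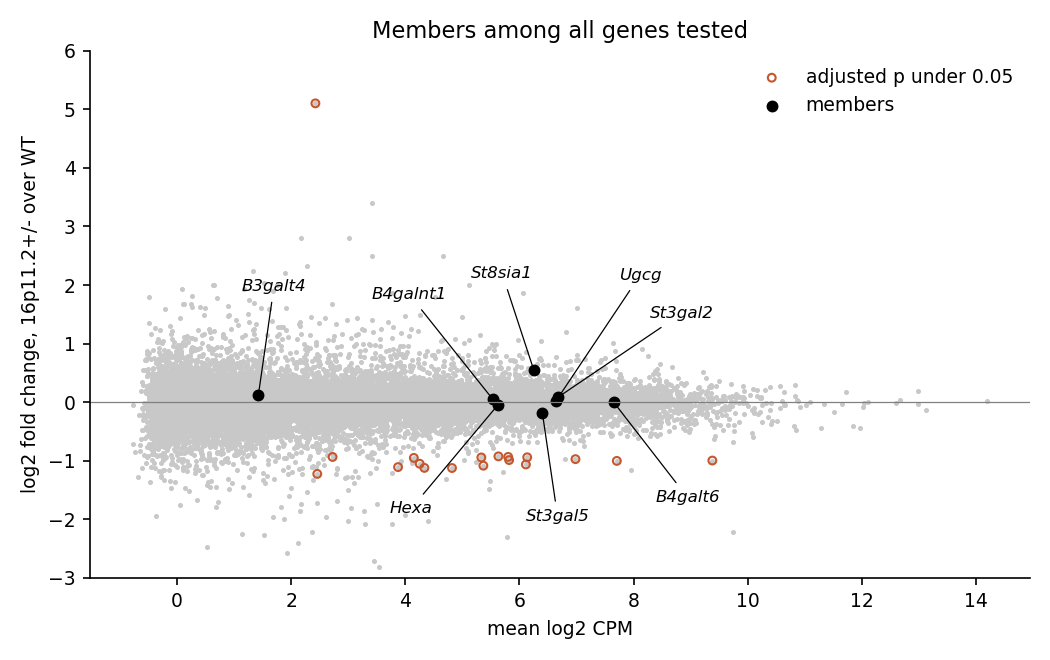
Log2 fold change (16p11.2+/- over WT, edgeR) against mean log2 CPM for the 18294 genes tested, with the 8 members in black and the 20 genes past the adjusted threshold as open circles. The members lie between -0.19 and 0.55 and none is among the 20, and 12 genes lie outside the plotted range.

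Ratios of FPKM within a mouse set related enzymes against each other, and are given as a description without a test. The ratio of St8sia1 to B4galnt1, the enzymes that act on GM3 for the b-series and the a-series, was 0.407, 0.318, 0.473 and 0.960 in WT and 0.698, 0.696, 0.546 and 0.927 in 16p11.2+/- mice. WT-1063 had the highest ratio of all 8 mice, and the other 3 WT mice had the 3 lowest. The ratio of St3gal5 to St8sia1 was 5.51 ± 1.45 (SD, n = 4) in WT and 3.24 ± 0.891 (n = 4) in 16p11.2+/- mice. The WT range of 3.79 to 7.22 overlapped the 16p11.2+/- range of 1.99 to 3.91 through WT-1063 alone.

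**Figure D4:**
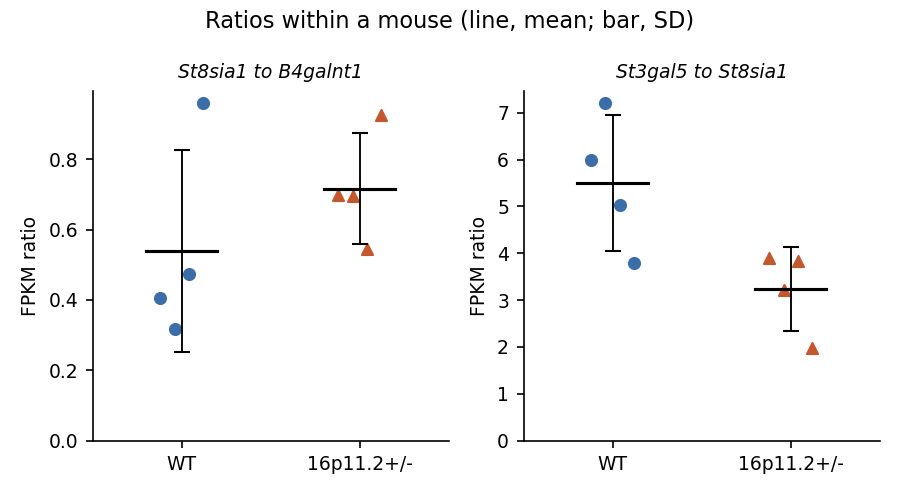
FPKM ratios within each mouse for St8sia1 to B4galnt1 and St3gal5 to St8sia1, with WT mice as circles, 16p11.2+/- mice as triangles, a line at the mean and a bar for the SD. Both ratios overlap between genotypes, and for St3gal5 to St8sia1 the means are 5.51 and 3.24.

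The genes nearest to the 3 members with the smallest unadjusted p were found by the mean absolute difference in standardised log2 CPM over the 8 mice, among 18293 other genes. For St8sia1 the nearest were Fndc10 (0.0970 SD units) and Ank1 (0.109), beside a median of 1.09 over all genes. Ank1, which encodes an ankyrin of the membrane skeleton, had 3.37 FPKM in WT and 5.55 in 16p11.2+/- mice, with overlapping ranges. For St3gal5 the nearest were Brap (0.123) and Ubl7 (0.126), beside a median of 1.04. For St3gal2 the nearest were Gm15753 (0.185) and an unannotated transcript (0.226), beside a median of 1.11. Among so many genes some are close in 8 mice by any measure, so these names are a description.

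The other 35 genes of the pathway were read from 4 lists, and 34 had enough counts to be tested. None passed the adjusted threshold (edgeR, smallest adjusted p = 0.859), 3 had an unadjusted p under 0.05, where 4.32% of all genes tested did, and DESeq2 likewise gave 0 and 3. Of the 34, 19 log2 fold changes were negative and 15 positive, with a median of -0.03. A single gene did not overlap between genotypes, where 2.83% of all genes did not.

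Among the 8 other synthesis genes, 5 log2 fold changes were positive and 3 negative, with a median of 0.11. St6galnac3, a sialyltransferase that acts on GM1b and related acceptors, had 2.63 ± 0.155 FPKM (SD, n = 4) in WT and 2.06 ± 0.396 (n = 4) in 16p11.2+/- mice. Its log2 fold change was -0.37 (SE 0.14), with an edgeR unadjusted p of 0.0281 and an adjusted p of 0.859. The FPKM of mice DF-1018, DF-1037 and DF-1062 was below that of every WT mouse, and that of DF-1059 was not. St8sia3, another alpha-2,8-sialyltransferase, had the highest level of the list, with 40.8, 38.4, 50.4 and 33.9 FPKM in WT and 47.2, 18.5, 43.9 and 27.1 in 16p11.2+/- mice. The deposited FPKM used a length of 6665 bases for St8sia3, where GENCODE M21 has 11702, which would give a lower FPKM. Of its exon bases, 7.85% overlap St8sia3os on the opposite strand. Its low values were in mice DF-1037 and DF-1062, those with the lowest medium spiny neuron scores, and its log2 fold change was -0.27 (SE 0.29).

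Of the 11 breakdown genes, which encode hydrolases, most of them lysosomal, and cofactors, 7 log2 fold changes were negative and 4 positive, with a median of -0.06 and none with an unadjusted p under 0.05. Of the 10 genes that supply activated sugars, 9 were tested, and their median was 0.00. Gne, the bifunctional enzyme that starts sialic acid synthesis, had 5.49, 5.22, 5.55 and 5.31 FPKM in WT and 5.64, 5.69, 6.62 and 7.15 in 16p11.2+/- mice. All 4 16p11.2+/- mice were above all 4 WT mice, though DF-1018 only slightly. Gne had a log2 fold change of 0.19 (SE 0.08), an edgeR unadjusted p of 0.0426 and an adjusted p of 0.859. Its exact permutation p of 0.0286, the smallest that 4 against 4 mice can give, follows from the lack of overlap alone. Gne was named for that lack of overlap and its unadjusted p, so the permutation p adds no further support. Nanp, which removes phosphate from the sialic acid precursor, had 4 to 32 counts and was not tested.

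Of the 6 genes of lipid transfer and other branches, 5 log2 fold changes were negative, and the median was -0.29. Ugt8a, which makes galactosylceramide, the main glycolipid of myelin, had 26.0, 21.6, 29.9 and 23.1 FPKM in WT and 17.4, 23.4, 19.3 and 18.8 in 16p11.2+/- mice. All 16p11.2+/- mice except DF-1037 were below every WT mouse. The log2 fold change was -0.37 (SE 0.13), with an edgeR unadjusted p of 0.0203 and an adjusted p of 0.859. The summed oligodendrocyte markers were also lower in 16p11.2+/- mice, without overlap. Whether they bear on the Ugt8a difference was not tested.

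**Figure D5:**
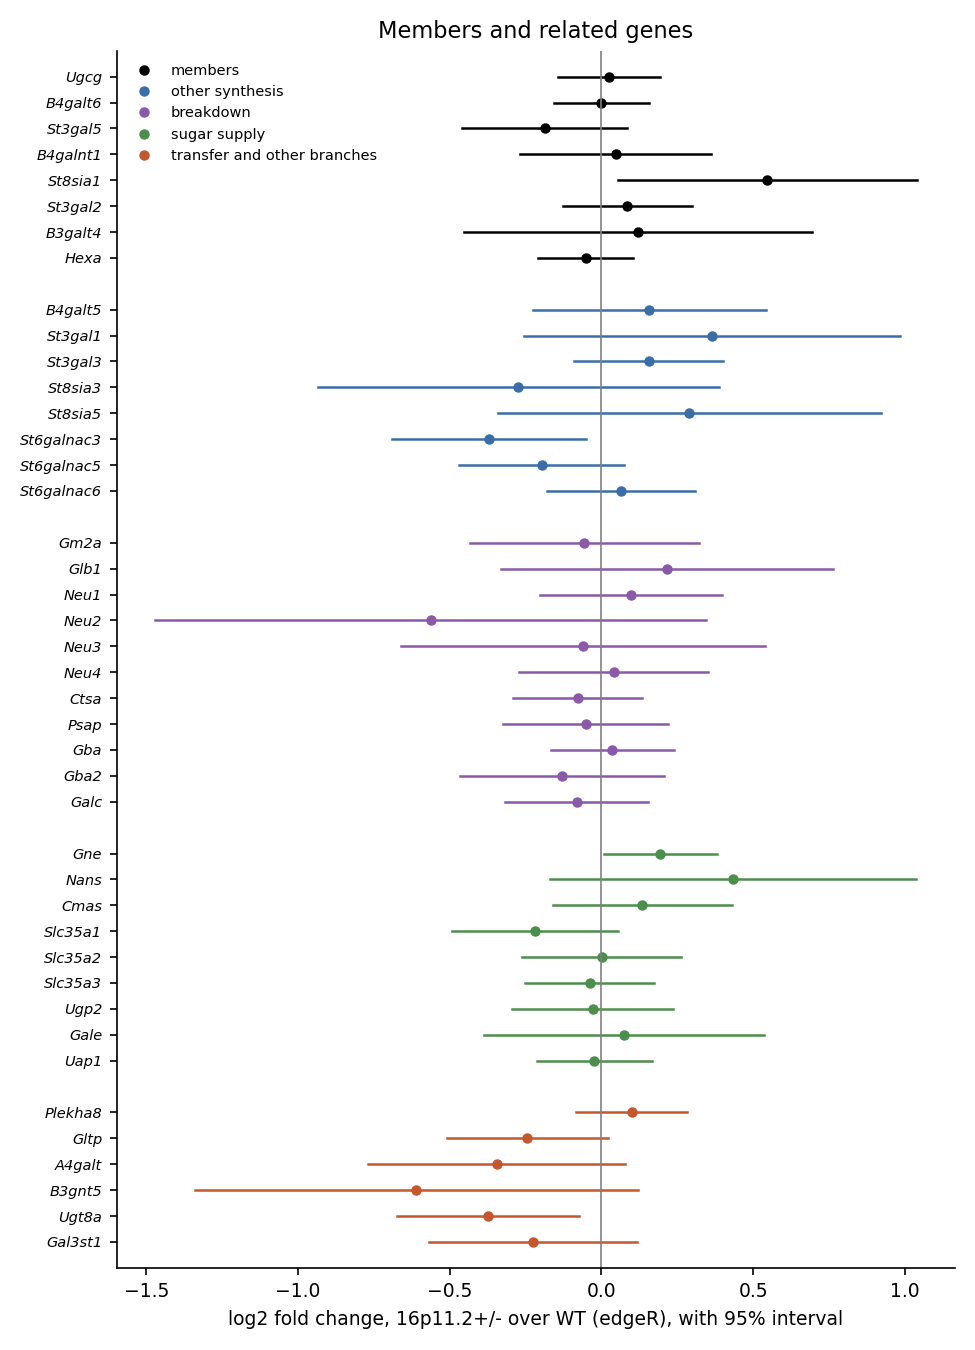
Log2 fold change (16p11.2+/- over WT, edgeR) of the 8 members and the 34 tested genes of 4 related lists, with 95% intervals. Among the members the interval of St8sia1, from 0.05 to 1.04, lies above 0 and the other 7 span 0, and none passed the threshold after adjustment over all genes.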

How the data were processed

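Total RNA of striatum from 4 WT and 4 16p11.2+/- mice was sequenced, 1 library per mouse. The authors filtered low quality and adapter sequences, mapped reads with Hisat2, summed them per gene with Htseq-count and deposited these as raw counts. The authors also deposited FPKM, and dividing each count by it and by the mouse's total gave 1 length per gene in all mice. These lengths matched GENCODE M21 within 0.1% for 95.5% of 15239 genes, so positions were taken from it (GRCm38). The submitters' processing notes name Bowtie 0.12.2, mm8 and mm9 instead. The strand setting is not given in the sources used here. The deposited table of the authors' DESeq2 comparison (group means, fold changes, p-values) and the deposited summary of FPKM in bins were not used.

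The quasi-likelihood test of edgeR 4.0.16 (R 4.3.3) was run on the counts with TMM factors, after filterByExpr had kept 18294 genes at a minimum count of 10 and a total of at least 15. P-values were adjusted over these genes by Benjamini-Hochberg, with 0.05 as the threshold. Each SE follows from the fold change divided by the root of its F value. For FPKM of the 8 members and Gne, exact permutation tests were two-sided. A marker score averages the log2 CPM of its genes (prior count 2). Counts of mice of 1 genotype differed by 8.07 to 56.0 in chi-square per degree of freedom, beyond sampling noise, and no library was a copy of another. The scripts were tested on simulated data in which 200 genes were changed.

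Named were the 8 members, Gm2a, B4galt5, St8sia3, any gene of the pathway lists past the adjusted threshold or otherwise with an unadjusted p under 0.05 or no overlap, the 2 nearest genes to each of 3 members, and Taok2, Mapk3 and Aldoa. Nanp is named as the single listed gene that was not tested, and Nans, Cmas and Slc35a1 were named after their values were seen. A further gene planned for the breakdown list is not reported here and is in no count of that list. The members and lists were chosen with earlier results of these data known. As alternatives, each mouse was left out in turn, marker scores were added as covariates, and other count filters, library totals or RLE factors were used in edgeR. Other tools were DESeq2 1.42.0 and limma 3.58.1, as voom on counts and as limma-trend on log2(FPKM + 1) and log2(FPKM + 0.1). The medium spiny neuron score as a covariate and the fit without mice DF-1037 and DF-1062 were chosen after seeing the data. Lipidomics, microscopy and other assays were not analysed here.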

Additional observations from a re-analysis of the deposited data

Results flagged for a closer look

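Of 30 groups of 4 values examined (FPKM of the 8 members, 2 ratios and 5 marker scores in each genotype), 1 had a mouse far from the other 3. The thalamus score of WT-1063 was 7.03, while the other WT mice had 3.92 to 4.26, and the gap made up 0.892 of the whole range, above Dixon's critical value for 4 samples. Chance gives such a value in about 1 in 20 groups. In the same mouse St8sia1 had the highest and B4galnt1 the lowest FPKM of the 4 WT mice, 9.42 and 9.81.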

How the results depend on the processing

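The count of members past the adjusted threshold was 0 under every alternative tried, as was that of the other genes of the pathway. Over all genes, 20 passed, and 31 with DESeq2 (26 lower and 5 higher), 1 with the oligodendrocyte score as a covariate, 11 without mice DF-1037 and DF-1062, and 8 to 18 with 1 mouse left out. The oligodendrocyte score did not overlap between genotypes, so the fit with it could not well separate score from genotype. In that fit 0 genes were called lower, where the main fit called 17. The cause of these changes was not tested, and fits without a mouse hold fewer samples.

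The log2 fold changes of St8sia1, St3gal2 and B3galt4 were positive in 21 of 21 alternatives, that of St8sia1 between 0.30 and 0.77. St8sia1 had an unadjusted p under 0.05 in 12 of these and St3gal2 in 2, and neither had an adjusted one. St3gal5 and Hexa turned positive with the oligodendrocyte score as a covariate, at 0.059 (SE 0.14) and 0.019 (SE 0.10), and that score did not overlap between genotypes. B4galt6 was at -0.031 with that score, at -0.033 with the choroid plexus score and at -0.0015 with 10 counts required in every mouse. Ugcg was at -0.030 with the thalamus score and B4galnt1 at -0.028 with the choroid plexus score.

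With 1 mouse left out, the log2 fold change was -0.0021 to 0.063 for Ugcg, -0.033 to 0.028 for B4galt6 and -0.069 to 0.11 for B4galnt1. The FPKM difference between genotypes was then -0.194 to 1.30 for B4galt6, -0.431 to 1.24 for B4galnt1 and -0.872 to 0.142 for Hexa. No member reached an exact permutation p under 0.05 with FPKM on either log2 scale. With 1 mouse left out, the permutation test has too few assignments to give a p under 0.05, so those fits could not decide this. St8sia1 without WT-1063 gave p = 0.0571 in the exact permutation test, the smallest possible there.

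No paired analysis was possible because no mouse number occurs in both genotypes. The 95% interval reached 0.41 on the log2 scale to each side at the median of all genes tested.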

Other observations

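Several genes of the pathway stood apart in the same 3 mice whatever their genotype. WT-1063 and DF-1037 and DF-1062 had the 3 highest thalamus scores (7.03, 7.01 and 6.46), with DF-1018 next at 6.14. By deposited FPKM, St8sia1 and Ugcg were highest in these 3 mice among the members, Ugcg by a small margin that did not hold in TMM-scaled log2 CPM, as were 10 of the 34 other genes tested, and 4 of the 34 were lowest in them. Of all 18294 genes tested, 11.23% were highest and 7.96% lowest in these 3 mice. The genes named here were chosen after their values were seen, and the pattern was not tested.

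The 3 mice had the highest levels of 2 genes that make and activate sialic acid. Nans, the sialic acid synthase, of whose exon bases 29.6% overlap Trim14 on the opposite strand, had 3.13, 3.43 and 3.10 FPKM in WT-1063 and in DF-1037 and DF-1062, and between 1.52 and 2.36 in the other 5 mice. Cmas, which activates sialic acid to its CMP form, had 16.4, 16.1 and 17.5 FPKM in the same mice and between 11.6 and 13.1 in the others. Other genes of sialic acid supply did not follow. Gne was at 5.31 in WT-1063, within the range of the other WT mice, and the CMP-sialic acid transporter Slc35a1 had its 2 lowest values, 9.29 and 9.49 FPKM, in DF-1062 and DF-1037 and its highest, 13.6, in WT-1063. B4galt5 was highest in these 3 mice as well, with 13.8, 14.3 and 15.1 FPKM. St8sia3 ran the other way from St8sia1, with 33.9, 18.5 and 27.1 FPKM in these mice and 38.4 to 50.4 in the other 5. DF-1018, the next mouse by thalamus score, did not go with the 3 in Cmas, B4galt5 and St8sia3, at 12.6, 10.3 and 47.2 FPKM. Its Nans and St8sia1 levels, 2.36 and 8.29 FPKM, were the highest of the other 5 mice.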
